A study of Semiaphis heraclei with 6 samples.

Results

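The expression of 6 cytochrome P450 genes that make or break down the moulting hormone was measured in nymphs of *Semiaphis heraclei*, the celery aphid. The nymphs were treated in the third instar with acetone or with afidopyropen, an insecticide that acts on transient receptor potential vanilloid channels of insects. The genes are 6 of the 57382 unigenes in the deposited values and were picked by unigene ID. Their gene names are those given in the study after each assembled sequence was matched to proteins of other aphids. *CYP307A2* (Unigene11373-S6), *CYP306A1* (Unigene13207-S4), *CYP302A1* (Unigene16067-S1), *CYP315A1* (Unigene21790-S3) and *CYP314A1* (Unigene29672-S5) belong to hormone synthesis, and *CYP18A1* (Unigene9273-S4) to hormone inactivation. RNA was sequenced from wild-type whole bodies. The 3 control samples had received acetone, and the 3 afidopyropen samples the insecticide at its median lethal dose. Each sample was a pool of 30 nymphs taken 48 h after a topical droplet, and under afidopyropen the nymphs that survived were taken. Afidopyropen was dissolved in dimethyl sulfoxide before dilution in acetone, and no dimethyl sulfoxide is named for the control, so the solvent and the insecticide cannot be told apart. The labels do not give the instar at collection, so a difference in moult stage between the groups cannot be told apart from the treatment. The same holds for the taking of survivors.

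Insects cannot build the sterol ring and make ecdysteroids from dietary sterols. In insects the early steps, among them the poorly resolved conversions that need CYP307A enzymes, run in the prothoracic gland, where CYP306A1, CYP302A1 and CYP315A1 then add hydroxyl groups in turn to give ecdysone. CYP314A1 turns ecdysone into the active moulting hormone in peripheral tissues, and CYP18A1 oxidises the active hormone to inactive products. In the fruit fly *Drosophila melanogaster* the synthesis enzymes are encoded by the Halloween genes *spookier* (*CYP307A2*), *phantom* (*CYP306A1*), *disembodied* (*CYP302A1*), *shadow* (*CYP315A1*) and *shade* (*CYP314A1*). Here *CYP307A2* and *CYP306A1* are called early synthesis and the other 3 late synthesis. This split was set here, and *CYP306A1* could as well be placed with the hydroxylases that follow it. The early genes and *CYP18A1* belong to the CYP2 clade and the late genes to the mitochondrial clade, so the order of the steps and the clade cannot be told apart.

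The unigenes come from a *de novo* assembly and have no genome position, and the sequences of the unigenes themselves were not used here. The only sequences tied to these genes in the sources used here are the primers that the study designed for RT-qPCR, which are shown because the study used them to measure the genes of these names. Their match to the unigenes was not checked. They are written from the 5′ to the 3′ end, the 12 primers are 18 to 22 bases long and have a GC content of 31.8% to 50.0%, and they took no part in the sequencing values below.
CYP307A2 forward: gaagtcctcatcaccaac
CYP307A2 reverse: ccacgaccaatcacatag
CYP306A1 forward: atcctaccgaaccttacaa
CYP306A1 reverse: aatgccattctaacctgtg
CYP302A1 forward: gaccgattacatcacaatgg
CYP302A1 reverse: agcgtctctatgtcttctg
CYP315A1 forward: aagaaataccagttgttaaagg
CYP315A1 reverse: gcaccatattgttgatgac
CYP314A1 forward: cgttcacttggcatacaa
CYP314A1 reverse: gtagttcgctgttacttcat
CYP18A1 forward: gacgaacggaacatacag
CYP18A1 reverse: tatctccaacaggtaggc

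Expression was given by the authors as FPKM, a measure of transcript abundance that allows for the length of the unigene and the number of fragments mapped in a sample. FPKM do not give the number of fragments behind each value, so no counting interval is given. The FPKM of all unigenes summed to 706796 to 713893 in the control samples and to 690884 to 696579 in the afidopyropen samples, and 46037 to 47623 unigenes were above 0 in a sample. Differences were tested with limma on log2(FPKM + 0.5), which understates the change of genes of low FPKM, over the 51749 unigenes whose mean reached 0.5 FPKM. All 6 genes passed this filter on low values. A gene was called changed at an adjusted p (Benjamini-Hochberg, over all 51749 unigenes) under 0.05. With 3 samples against 3, the exact permutation test on the values of a single gene cannot go below p = 0.1. The p-values rest on the spread between pools of insects. For each gene limma draws this spread toward that of other unigenes at a like level. In whole bodies, fewer cells of a type and less RNA per cell cannot be told apart.

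Under afidopyropen treatment the early synthesis genes and the inactivation gene were higher, and 2 of the 3 late synthesis genes were lower. Of the 6 genes, 3 rose (*CYP307A2*, *CYP306A1* and *CYP18A1*), 2 fell (*CYP302A1* and *CYP314A1*) and 1, *CYP315A1*, did not pass the test. In its own test of the sequencing data the study lists *CYP307A2*, *CYP306A1* and *CYP18A1* as upregulated. It does not list *CYP302A1* or *CYP314A1* as changed, so their fall was called here and not there. By RT-qPCR the study reports the early genes and *CYP18A1* as upregulated. It also reports a rise for 1 gene of the mitochondrial clade, which its text does not name and which may be a late gene. No gene is named as lower there, so the fall of *CYP302A1* and *CYP314A1* is not reported by RT-qPCR either. Across all unigenes tested, 8.2% were called higher and 9.79% lower. For 5 of the 6 genes the values of the groups were fully apart, as they were for 35.7% of all unigenes tested. The share of calls over all unigenes rose with the level of expression, from 7.18% at a mean of 1 to 3 FPKM, where *CYP302A1* and *CYP315A1* lay, to 24.1% at 3 to 10 FPKM, where *CYP307A2*, *CYP306A1* and *CYP314A1* lay, and 49.3% at 10 to 30 FPKM, where *CYP18A1* lay. The median log2 fold change of the 6 genes was 0.38 and that of all unigenes tested -0.04. Since the genes were chosen with earlier results of these data known, these shares are descriptions.

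**Figure D1:**
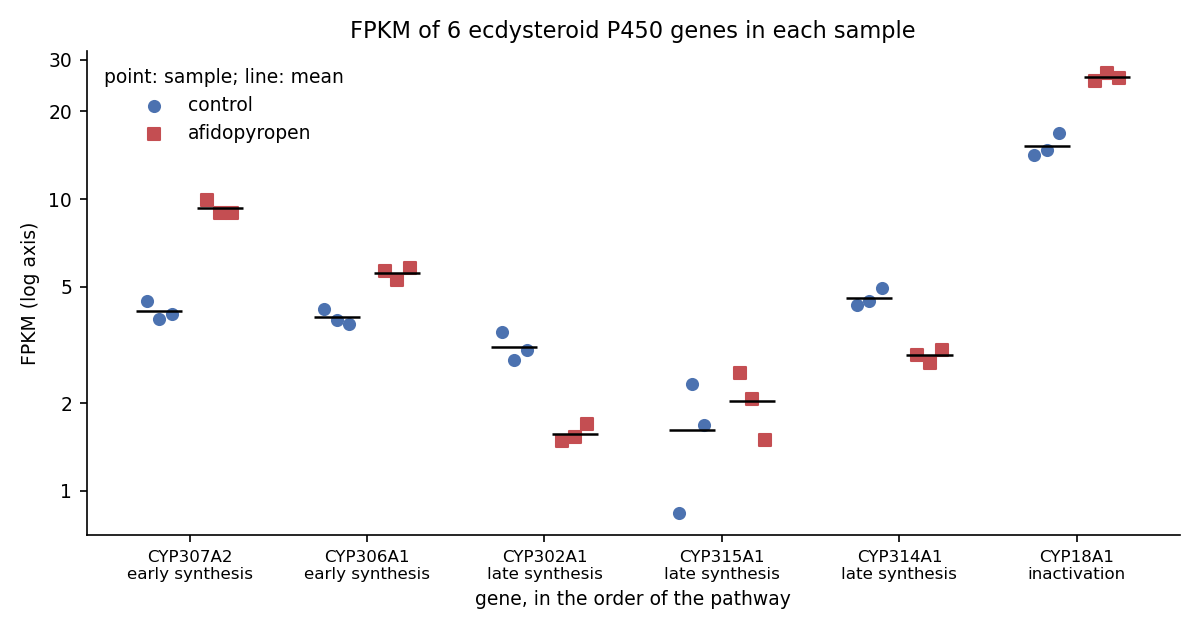
FPKM on a log axis for each of the 6 genes, in the order of the pathway, in 3 control samples (circles) and 3 afidopyropen samples (squares), with a line at each group mean. The afidopyropen samples lie above the control samples for CYP307A2, CYP306A1 and CYP18A1 and below them for CYP302A1 and CYP314A1, and the groups overlap for CYP315A1.

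*CYP307A2*, which acts in the first, poorly resolved part of the pathway, had the largest fold change of the 6 genes in size. Its FPKM was 4.49, 3.88 and 4.05 in the control pools and 9.95, 8.95 and 8.99 in the afidopyropen pools. Each afidopyropen sample was at least 1.99 times the highest control sample, and the group means were 4.14 ± 0.315 and 9.30 ± 0.566 FPKM (SD, n = 3), a ratio of 2.25. The log2 fold change was 1.08 (95% interval 0.85 to 1.31, adjusted p = 0.000609 from limma), larger in size than that of 80.3% of the unigenes tested.

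*CYP306A1*, which hydroxylates the sterol side chain, rose less. Its FPKM was 4.19, 3.85 and 3.74 in the control pools and 5.66, 5.29 and 5.80 in the afidopyropen pools. The groups did not overlap, with a gap of 1.26-fold between the lowest afidopyropen and the highest control sample. The log2 fold change was 0.46 (95% interval 0.21 to 0.70, adjusted p = 0.0247 from limma), a ratio of means of 1.42. In size this change lay near the middle of all unigenes tested, of which 49.5% changed less. The call was lost in 5 of the 6 fits that left out 1 sample, at an adjusted p from limma of 0.0712 without control replicate 2, 0.0621 without control replicate 3, and 0.0785, 0.056 and 0.0874 without afidopyropen replicates 1, 2 and 3, while the fold change stayed between 0.43 and 0.50 over all 6 fits.

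The ratio between the early genes also differed between the groups, given here as values with no test. In the control samples *CYP307A2* was at 1.07, 1.01 and 1.08 times the FPKM of *CYP306A1*, so both genes stood at about the same level in every pool. In the afidopyropen samples the ratio was 1.76, 1.69 and 1.55, above all of the control ratios. FPKM are scaled for unigene length, and on that basis levels of different genes are set side by side here. This holds only as far as each assembled unigene is complete and its fragments were assigned to it alone, which was not checked.

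*CYP302A1*, the first of the late genes and also a hydroxylase of the side chain, fell. Its FPKM was 3.50, 2.81 and 3.03 in the control pools and 1.48, 1.53 and 1.69 in the afidopyropen pools. All 3 control samples were at least 1.66 times the highest afidopyropen sample, and the control mean of 3.11 ± 0.352 FPKM (SD, n = 3) was 1.99 times the afidopyropen mean of 1.57 ± 0.110 FPKM (SD, n = 3). The log2 fold change was -0.80 (95% interval -1.22 to -0.39, adjusted p = 0.022 from limma). When samples were left out 1 at a time, the direction was the same in all 6 fits, at -0.86 to -0.73, but none of them called the gene. The adjusted p from limma was 0.077, 0.0513 and 0.0601 without control replicates 1, 2 and 3, and 0.0613, 0.0617 and 0.0501 without afidopyropen replicates 1, 2 and 3.

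*CYP315A1*, which hydroxylates the sterol ring in the last step before ecdysone, had the most uneven values of the 6 genes. Its FPKM was 0.84, 2.33 and 1.68 in the control pools and 2.54, 2.07 and 1.49 in the afidopyropen pools, so the groups overlapped. Its SD was 46.2% of the mean in the control and 25.9% under afidopyropen treatment, against 3.25% to 11.3% for the other 5 genes in either group. The log2 fold change was 0.30 (95% interval -0.52 to 1.13, adjusted p = 0.59 from limma). This interval holds 0 and the fold changes of the 3 genes that rose, and its lower end lies above the -0.80 of *CYP302A1* and the -0.58 of *CYP314A1*. The difference between these genes was not tested. Without control replicate 1, the lowest of its values, the log2 fold change of *CYP315A1* was 0.01, and without control replicate 2 it was 0.55.

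*CYP314A1*, which makes the active hormone from ecdysone, fell as well. Its FPKM was 4.35, 4.47 and 4.96 in the control pools and 2.92, 2.75 and 3.05 in the afidopyropen pools. The groups did not overlap, and the control mean of 4.59 ± 0.323 FPKM (SD, n = 3) was 1.58 times the afidopyropen mean of 2.91 ± 0.150 FPKM (SD, n = 3). The log2 fold change was -0.58 (95% interval -0.87 to -0.29, adjusted p = 0.0191 from limma). The call was lost in 4 of the 6 fits that left out 1 sample, at an adjusted p from limma of 0.0571 without control replicate 2, 0.0595 without control replicate 3, 0.0535 without afidopyropen replicate 1 and 0.0606 without afidopyropen replicate 2.

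*CYP18A1*, the enzyme that clears the active hormone, was the most abundant of the 6 genes in every sample and rose. Its FPKM was 14.14, 14.74 and 16.85 in the control pools and 25.41, 27.10 and 26.08 in the afidopyropen pools. The lowest afidopyropen sample was 1.51 times the highest control sample. The group means were 15.2 ± 1.42 and 26.2 ± 0.851 FPKM (SD, n = 3), a ratio of 1.72, and the log2 fold change was 0.77 (95% interval 0.59 to 0.94, adjusted p = 0.000854 from limma). Leaving out 1 sample at a time kept the calls of *CYP18A1* and *CYP307A2* in all 6 fits, with adjusted p-values from limma of up to 0.0066 and 0.00477. They were also the only genes of the 6 that passed an adjusted p under 0.01 in the reported fit. At that threshold 2211 of the 51749 unigenes tested were higher and 2894 lower.

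**Figure D2:**
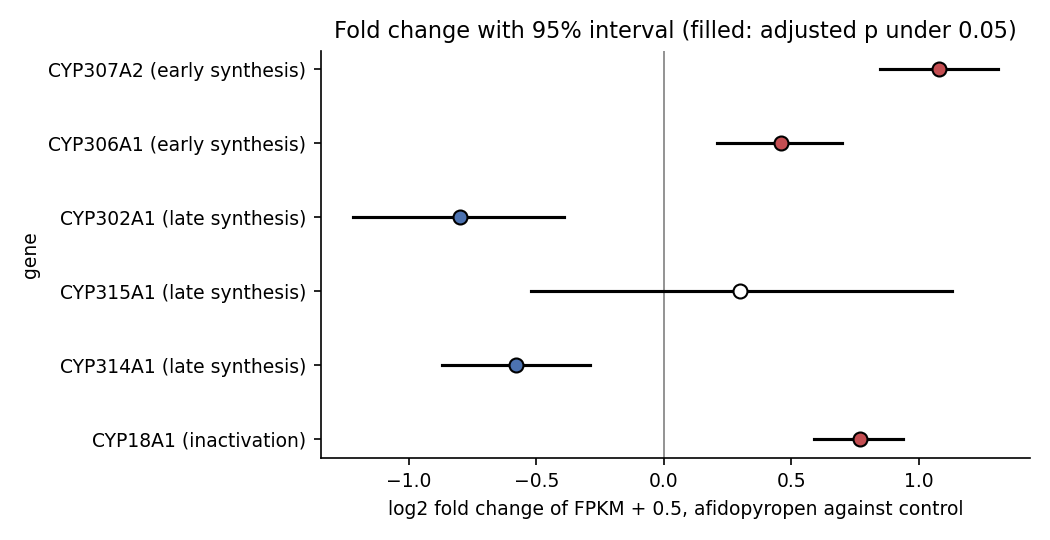
Log2 fold change of FPKM + 0.5 under afidopyropen treatment for each gene (points) with its 95% interval from limma (bars). Filled points passed an adjusted p under 0.05, red for higher and blue for lower, and the open point of CYP315A1 has an interval of -0.52 to 1.13 that crosses 0.

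**Figure D3:**
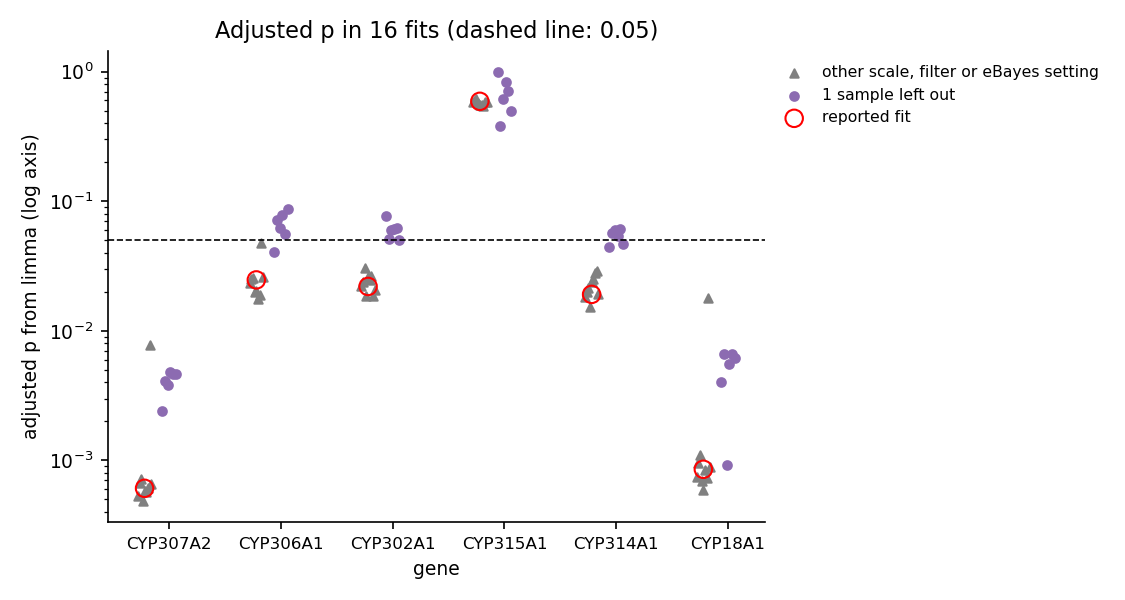
Adjusted p from limma on a log axis for each gene in 16 fits, with the reported fit as a red ring, fits with 1 sample left out as purple points and fits with another scale, filter or eBayes setting as grey triangles. CYP307A2 and CYP18A1 stay below the dashed line at 0.05 in all of them, CYP306A1, CYP302A1 and CYP314A1 cross it when samples are left out, and CYP315A1 lies above it throughout; the fit with the replicate number as a block is not plotted.

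The order of the levels differed between the treatments. In the control samples it was *CYP18A1*, *CYP314A1*, *CYP307A2*, *CYP306A1*, *CYP302A1* and *CYP315A1*, from high to low by the mean FPKM. Here *CYP314A1* and *CYP307A2* overlapped, as did *CYP307A2* and *CYP306A1*, whereas *CYP18A1* stood 3.32-fold above the next gene. In the afidopyropen samples the order was *CYP18A1*, *CYP307A2*, *CYP306A1*, *CYP314A1*, *CYP315A1* and *CYP302A1*. Only the last pair overlapped there, with *CYP315A1* above *CYP302A1* in 2 of the 3 samples. *CYP314A1*, next to *CYP18A1* in the control order, thus lay below both early genes under afidopyropen treatment, with *CYP306A1* at 1.92 times its mean.

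The make-up of the 6-gene sum also differed between the groups, while that sum went from 32.6 ± 1.48 to 47.6 ± 0.440 FPKM (SD, n = 3). *CYP302A1* held 8.76% to 11.1% of the sum in the control samples and 3.09% to 3.59% in the afidopyropen samples. *CYP314A1* held 13.8% to 14.5% and 5.77% to 6.48%. *CYP307A2* went the other way, with 11.8% to 14.2% and 18.8% to 20.7%, and *CYP18A1* with 44.9% to 49.1% and 53.0% to 56.8%. The share of *CYP306A1* overlapped between groups, at 10.9% to 13.3% and 11.1% to 12.3%, as did that of *CYP315A1*, at 2.67% to 7.26% and 3.16% to 5.30%. These shares are of 1 sum, so a larger share of one gene lowers those of the others.

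**Figure D4:**
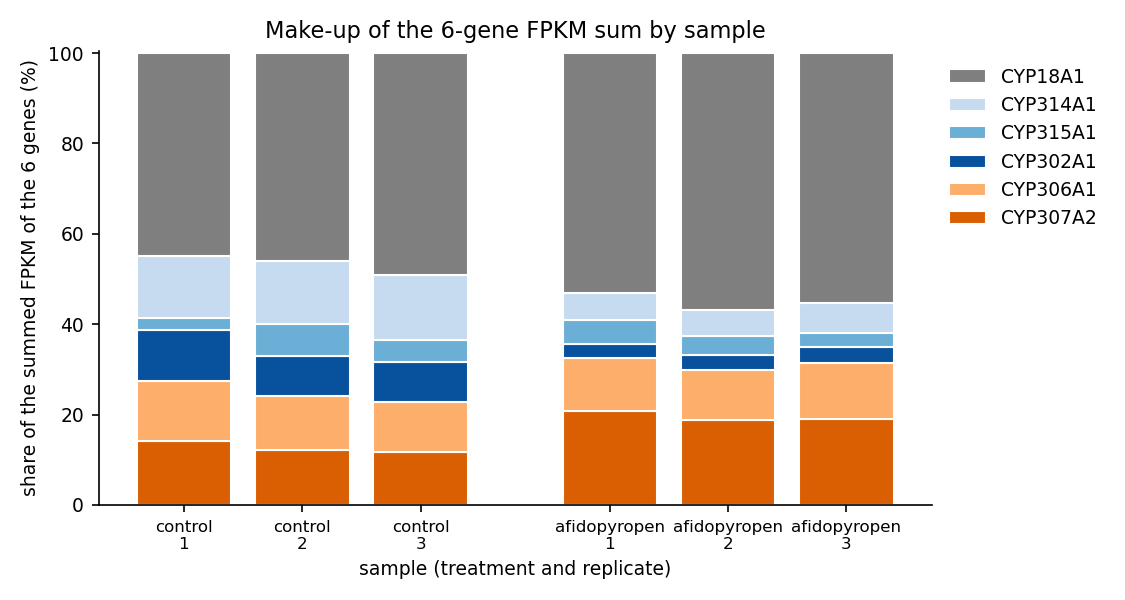
Share of each gene in the summed FPKM of the 6 genes (%), stacked for each of the 3 control and 3 afidopyropen samples. The dark blue band of CYP302A1 narrows from 8.76% to 11.1% in the control to 3.09% to 3.59% under afidopyropen treatment, and the orange band of CYP307A2 widens from 11.8% to 14.2% in the control to 18.8% to 20.7%.

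Early and late synthesis were set against each other within each sample, as values with no test because they combine genes chosen with results known. The summed FPKM of the early genes was 0.999, 0.804 and 0.806 times that of the late genes in the control samples and 2.25, 2.24 and 2.37 times in the afidopyropen samples. The early sum is over 2 genes and the late sum over 3, so the size of this ratio depends on the unequal number of genes. The mean per early gene was above the mean per late gene in every control pool as well, although *CYP314A1* by itself was above *CYP306A1* in each of them. The early sum went from 8.07 ± 0.532 to 14.9 ± 0.689 FPKM and the late sum from 9.32 ± 0.549 to 6.51 ± 0.380 FPKM (SD, n = 3). On the log2 scale, the mean of the early genes minus that of the late genes was 0.71, 0.28 and 0.34 in the control samples and 1.55, 1.53 and 1.63 in the afidopyropen samples. The group means were 0.44 ± 0.232 in the control and 1.57 ± 0.0567 under afidopyropen treatment (SD, n = 3), a difference of 1.13. *CYP315A1* lowered this value, which was 1.46 when the late genes were *CYP302A1* and *CYP314A1* alone. The contrast depends on placing *CYP306A1*, which rose, with the early genes, and it was not computed with that gene among the late ones.

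*CYP307A2* and *CYP302A1*, the genes with the highest and the lowest fold change of the 6, were also set against each other, a pair singled out after the values were seen. Their ratio of FPKM was 1.28, 1.38 and 1.34 in the control samples and 6.72, 5.85 and 5.32 in the afidopyropen samples. Among the genes that fell, the ratio of *CYP302A1* to *CYP314A1* was 0.805, 0.629 and 0.611 in the control samples and 0.507, 0.556 and 0.554 in the afidopyropen samples, so the groups were apart but the control values had an SD of 0.107, wider than the gap between the groups.

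The last step of activation was then set against inactivation. *CYP18A1* was at 3.25, 3.30 and 3.40 times the FPKM of *CYP314A1* in the control samples and at 8.70, 9.85 and 8.55 times in the afidopyropen samples. The control pools lay close together and far below the treated ones. On the log2 scale the difference between both genes was 1.59, 1.62 and 1.67 in the control samples and 2.92, 3.09 and 2.90 in the afidopyropen samples, and the group means were 1.34 apart. Against the sum of all 5 synthesis genes, which went from 17.4 ± 0.0624 to 21.4 ± 1.03 FPKM (SD, n = 3), *CYP18A1* was at 0.814, 0.850 and 0.965 in the control samples and at 1.13, 1.32 and 1.24 in the afidopyropen samples. These are ratios of transcripts, and neither enzyme amounts nor hormone levels were measured.

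**Figure D5:**
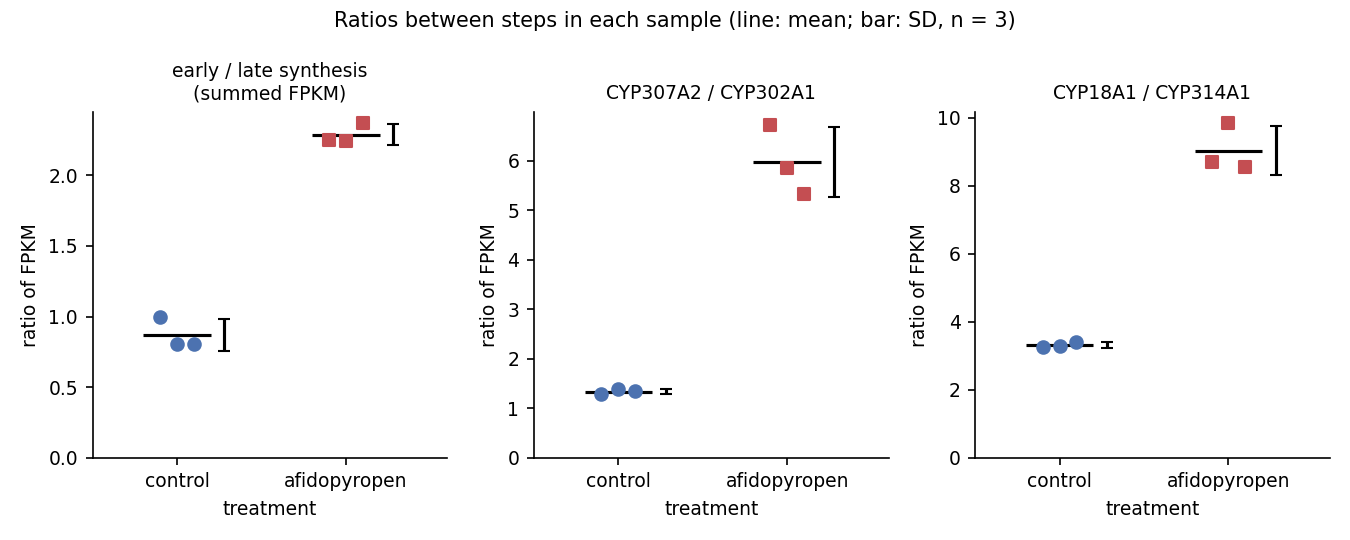
Ratio of FPKM in each sample (points), with the mean (line) and SD (bar, n = 3), for summed early over summed late synthesis genes, CYP307A2 over CYP302A1, and CYP18A1 over CYP314A1. Each axis starts at 0, and in each panel the 3 afidopyropen samples lie above the 3 control samples.

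Over all unigenes the direction of calls went with the suffix of the unigene ID, so each gene was read beside its own suffix. *CYP306A1* and *CYP18A1*, which rose, end in S4, where 4.27% of the unigenes tested were called higher and 15.0% lower. *CYP314A1*, which fell, ends in S5, where 13.1% were called higher and 5.13% lower. These 3 genes thus moved against the commoner direction of their suffix. *CYP307A2* rose and ends in S6, with 12.3% higher and 4.84% lower, and *CYP302A1* fell and ends in S1, with 3.39% higher and 13.2% lower. *CYP315A1*, which was not called, ends in S3, with 3.79% higher and 13.9% lower. *CYP307A2* and *CYP302A1* moved in the commoner direction of their suffix, and the part of the suffix in their change was not tested.

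The other 10 P450 genes named in the study served as a list beside these 6. Of them, 1 rose, 3 fell and 6 did not pass the test, and their log2 fold changes had a median of -0.23 and ran from -1.15 to 0.83. The values of the groups were fully apart for 7 of these 10 genes, beside 5 of the 6 and 35.7% of all unigenes tested. *CYP15A1*, an epoxidase of juvenile hormone synthesis in other insects, was among the 6 that did not pass. By RT-qPCR, however, the study reports all the CYP2 clade genes it names as upregulated, and *CYP15A1* is one of them. Its FPKM was 2.98, 2.91 and 2.59 in the control pools and 2.74, 2.96 and 2.91 in the afidopyropen pools, so the groups overlapped, with a log2 fold change of 0.02 (95% interval -0.31 to 0.35, adjusted p = 0.948 from limma). Other genes of ecdysteroid synthesis and response, such as *neverland*, *shroud* and the ecdysone receptor, were not analysed here, since gene names are paired with IDs for the 19 P450 and carboxylesterase genes named in the study alone.

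Likeness of pattern was measured as the Euclidean distance between genes of log2(FPKM + 0.5), centred on the mean of each gene over the 6 samples, against the other 18 named P450 and carboxylesterase genes. Among these, *CYP306A1* was nearest to *CYP6CY77*, at a distance of 0.205, and *CYP314A1* to *CYP6YC1*, at 0.224. *CYP302A1* was nearest to *CYP303A1* at 0.302, *CYP18A1* to *CarE4* at 0.473 and *CYP307A2* to *CYP6DA2* at 0.490, with *CYP18A1* close behind at 0.501. *CYP315A1* had no close partner, with *CYP6DB1* nearest at 0.973. Between 0.868% and 13.8% of all unigenes tested were closer to a gene than its nearest named gene, so unigenes without a name lay closer in each case.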

How the data were processed

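RNA of whole bodies was sequenced in 3 control and 3 afidopyropen samples, grouped by their labels. The authors deposited 1 table of FPKM with 2 decimals. According to the study's methods, reads were filtered, assembled with Trinity, clustered with CD-HIT, aligned with Bowtie2 and quantified with RSEM, without versions, whereas cutadapt 1.9, edgeR, DESeq2 and StringTie are named in the submitters' processing notes. Which of these made the deposited FPKM was not settled. Fragments shared between similar P450 unigenes may be divided between them. FPKM are not counts, so limma 3.58.1 in R 4.3.3 (lmFit, eBayes with trend, no block) was run on log2(FPKM + 0.5) over all unigenes whose mean reached 0.5 FPKM. It was adjusted by the Benjamini-Hochberg method over all of them. The fit was also run on simulated data with independent noise and few changed unigenes. These data differ from that setting, so the run does not bear on the calls given here. The unigene IDs matched 0 entries of the gene table of assembly ASM4611911v1. All 6 genes are named, with *CYP15A1* and, for each gene, the nearest in pattern of the other 18 named P450 and carboxylesterase genes. The genes, the lists and the tests were chosen with earlier results of these data known.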

Additional observations from a re-analysis of the deposited data

How the results depend on the processing

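All 6 genes kept their direction in every alternative fit. *CYP315A1* was called in none of them, and its log2 fold change was 0.01 without control replicate 1. The fits used pseudocounts of 0.1 and 1, no filter or a minimum mean of 1 FPKM, and 3 other scalings (median-of-ratios, a common total and quantile). The others used eBayes in robust form or without trend, the block, or left out 1 sample. With the replicate block, log2 fold changes of *CYP306A1*, *CYP302A1* and *CYP314A1* were 0.46, -0.80 and -0.58 at an adjusted p from limma of 0.0803, 0.0782 and 0.0643, so 2 of the 6 genes were called higher and 0 lower (2895 and 3660 of all unigenes, against 4241 and 5067 without the block). The replicate numbers did not pair the samples: deviations from the group means correlated at -0.00408, 0.00105 and 0.00766 between samples of the same number, and not every sample correlated best with its own number. With 1 sample left out, the log2 fold change ranged from 0.43 to 0.50 for *CYP306A1*, from -0.86 to -0.73 for *CYP302A1* and from -0.61 to -0.53 for *CYP314A1*. In these fits 0 to 1 of the 6 genes were called lower, beside 3747 to 4086 of the 50979 to 51271 unigenes tested. At an adjusted p under 0.01, 0 of the 6 genes were lower, and 2211 unigenes were higher and 2894 lower. At the threshold of 0.05 but without trend, 2810 unigenes were higher and 3346 lower. In that fit the adjusted p from limma was 0.00776 for *CYP307A2* and 0.0178 for *CYP18A1*, against 0.000609 and 0.000854 in the reported fit. Over all unigenes the split of calls was 4241 higher and 5067 lower as reported, but 4663 and 4603 under median-of-ratios scaling and 4813 and 4518 under quantile normalization. The early minus late difference of 1.13 was 1.40 as the log2 ratio of summed FPKM and 1.46 without *CYP315A1*. The number of fragments behind each FPKM value is not given, and the wide interval of *CYP315A1* limits what can be said of that step.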
